A study of Homo sapiens with 15 samples.

Results

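The mRNA levels of 10 genes of the Notch pathway were examined in the osteosarcoma cell line 143B: the receptors NOTCH1, NOTCH2 and NOTCH3, the ligands JAG1, JAG2 and DLL1, the unconventional ligand DNER, and the target genes HES1, HES4 and HEY1. They were found by symbol among the 62700 genes of both count tables, and all 10 passed edgeR's filter on low counts in both. DNER was chosen by its CPM with shPDK1#2 against shCtrl, where it was low, so its values in the 9 hairpin libraries are a description and carry no test. The other 9 genes were listed for their role in the pathway, with earlier results of these data known.

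143B is an established human osteosarcoma line, and 15 bulk RNA-seq libraries of it fall into 5 conditions with 3 libraries each. The OSCs (osteosarcoma stem cells, as the study names them) were wild-type cells grown as spheres in DMEM/F12 with B27 supplement lacking vitamin A, GlutaMAX, EGF and basic FGF, while the wild-type non-OSCs were kept in DMEM with fetal bovine serum and sodium pyruvate. The shCtrl, shPDK1#1 and shPDK1#2 libraries came from cells infected with lentivirus carrying a control vector or a short hairpin against PDK1, the kinase that inactivates pyruvate dehydrogenase, and were grown under the sphere condition. Sphere growth, medium and growth factors changed together between OSCs and non-OSCs, so their effects cannot be told apart. All libraries came from 1 line, and nothing in the labels says that the libraries of a group were separate cultures, so the p-values measure the spread between these libraries, which may be technical. In bulk RNA, fewer cells with a transcript and less of it per cell cannot be told apart.

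Notch receptors are cut by ADAM proteases and then by gamma-secretase when a ligand on a neighbouring cell binds them, and the freed intracellular domain joins the DNA-binding protein RBPJ and Mastermind coactivators at target genes. The HES and HEY genes encode basic helix-loop-helix repressors and are the best known of these targets. JAG and DLL proteins are the canonical ligands, whereas DNER is a transmembrane protein with EGF-like repeats, best known from neurons, that lacks the DSL domain of the canonical ligands. In bone, Notch signalling can restrain osteoblast differentiation.

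RBPJ recognises the core TGGGAA, and HES1 protein is known to bind N boxes, CACNAG, in its own promoter. Both were searched on both strands in the 250 bases before the RefSeq start of each gene (GRCh38.p14), which was given for 7 of the 10 genes (all but DNER, DLL1 and HEY1). The RBPJ core was found before HES1 and HES4 and not in the windows of NOTCH1, NOTCH2, NOTCH3, JAG1 and JAG2. The NOTCH2 window (chr1:120069663-120069912) lies inside the gene as GENCODE places it, and GENCODE starts JAG2 inside its window. The absences in these windows thus hold for the RefSeq starts only. HES1 held the core 2 times, 84 to 79 and 70 to 65 bases before the start, and HES4 held it 1 time, 76 to 71 bases before the start. Of 35116 RefSeq promoters, 20.8% held the core at least 1 time and 2.90% at least 2 times. The N box was found 3 times before HES1 and 1 time before NOTCH3, and in 32.0% of all promoters. The matches do not overlap each other, and a match is not evidence that the site was bound. The HES1 sequence (chr3:194135898-194136147, plus strand) is shown whole because both motifs lie in it. Of HES4 (chr1:1000156-1000185, minus strand) 30 bases around the match are shown, since GENCODE starts the gene inside the window. That start, at base 1000172, lies within the match, so the match precedes HES4 for the RefSeq start only. Capitals mark the matches in these 5′ to 3′ sequences.
HES1: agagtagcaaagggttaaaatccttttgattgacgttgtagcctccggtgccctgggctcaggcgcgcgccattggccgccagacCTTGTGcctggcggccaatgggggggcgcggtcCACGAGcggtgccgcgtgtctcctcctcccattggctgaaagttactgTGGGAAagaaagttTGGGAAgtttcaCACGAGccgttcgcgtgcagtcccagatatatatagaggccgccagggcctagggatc
HES4: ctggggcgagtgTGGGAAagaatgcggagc

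The libraries held between 7992499 and 11256536 counts assigned to genes, between 2.69% and 3.89% of them from the mitochondrial genome, and edgeR's TMM factors lay between 0.981 and 1.02. PDK1 itself was at 46.7, 44.7 and 44.4 CPM (counts scaled to the library size with these factors) with shCtrl, at 29.0, 27.8 and 27.3 CPM with shPDK1#1 and at 18.3, 21.5 and 19.6 CPM with shPDK1#2, or 62.0% and 43.7% of shCtrl. Of the 8 genes listed as osteosarcoma and mesenchymal markers, VIM, SPARC and COL1A1 were abundant in all 5 conditions. COL1A2 had at most 16 counts and ALPL at most 28 counts in any library. Of the markers of other cell types, 3 of 5 for leukocytes (PTPRC and CD3D among them), 1 of 5 for endothelium (CDH5), 2 of 5 for epithelium (CDH1 and KRT14), 1 of 5 for neurons (ELAVL4) and 0 of 8 for fibroblasts had at most 3 counts in every library, and the others exceeded that in at least 1. The 2 tables were normalized separately, so a level in OSCs or non-OSCs is not compared with one in the hairpin libraries.

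The comparison of OSCs with non-OSCs asks how growth as spheres differs from adherent growth. All 10 Notch genes differed between them (edgeR's quasi-likelihood test, Benjamini-Hochberg adjusted p under 0.05 over the 14287 genes tested), with 7 higher in OSCs and 3 lower. Among all genes tested, 32.4% were called higher and 31.5% lower, so a call by itself is common in this comparison. The median log2 fold change of the 10 was 0.92, and that of all genes was -0.01. The ligands JAG1, JAG2, DLL1 and DNER were all higher in OSCs, the target genes split, and the most abundant receptor, NOTCH2, was lower. For none of the 10 did the libraries of the groups overlap, but the share of all genes for which this held was not counted.

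DNER (ENSG00000187957.8, chr2:229357629-229714555 of GRCh38, minus strand, 13 exons) was at 30.6, 33.3 and 29.5 CPM in non-OSCs and at 58.8, 68.1 and 67.2 CPM in OSCs. Its lowest OSC library was thus well above its highest non-OSC library. The log2 fold change was 1.06 (SE 0.0849, adjusted p 4.37e-10). The neural marker list, whose only abundant member was the tubulin gene TUBB3, moved in the same direction, with summed levels of 79.2 to 98.4 CPM in non-OSCs and 243.7 to 274.7 CPM in OSCs, and its part in the DNER difference was not tested. Of the 5 neural markers, 2 were tested and 1, TUBB3, was called higher. DNER was chosen for its low level with shPDK1#2. Of the 3033 genes called both there and in OSCs against non-OSCs, 80.7% had opposite directions in these comparisons.

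JAG1 (ENSG00000101384.12, chr20:10637684-10673999, minus strand, 26 exons), the ligand mutated in Alagille syndrome, was the most abundant ligand. It was at 179.0, 182.6 and 184.3 CPM in non-OSCs and at 337.8, 340.7 and 350.3 CPM in OSCs. The spread within each group was small beside the difference, and the log2 fold change was 0.91 (SE 0.0456, adjusted p 1.44e-13). DLL1 (ENSG00000198719.9, chr6:170282206-170306565, minus strand), a Delta-type ligand, was at 9.54 ± 1.65 CPM in non-OSCs and rose to 18.1 ± 0.856 CPM (mean and SD of 3 libraries). Its log2 fold change was 0.93 (SE 0.142, adjusted p 7.00e-06). JAG2 (ENSG00000184916.9, chr14:105140982-105168824, minus strand), the other Jagged ligand, was at 4.81 ± 0.768 CPM in non-OSCs and rose to 10.96 ± 1.09 CPM in OSCs, a log2 fold change of 1.19 ± 0.183 (SE, adjusted p 7.68e-06). It rests on 39 to 52 counts per non-OSC library and 93 to 97 counts per OSC library. Exons of a gene on the same strand cover 7.33% of the JAG2 exons, and those on the opposite strand cover 9.69% of DLL1 (FAM120B) and 3.29% of JAG1. The strandedness of the counting is not given in the sources used here, so such reads cannot be assigned with certainty.

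Among the receptors, NOTCH3 (ENSG00000074181.9, chr19:15159038-15200995, minus strand, 33 exons) had the largest log2 fold change of the 10 genes. It was at 5.50, 6.90 and 9.15 CPM in non-OSCs and at 19.1, 17.8 and 20.7 CPM in OSCs, a log2 fold change of 1.42 ± 0.161 (SE, adjusted p 1.00e-07). NOTCH2 (ENSG00000134250.21, chr1:119911553-120100779, minus strand, 34 exons) was at 302.4, 298.5 and 289.6 CPM in non-OSCs and at 257.9, 261.0 and 260.2 CPM in OSCs. This difference was small but larger than the spread, with a log2 fold change of -0.19 ± 0.0445 (SE, adjusted p 0.000706). NOTCH2 shares 6.59% of its sequence, as stretches of 75 bases, with the NOTCH2NL genes, so part of its reads could be divided between them. NOTCH1 (ENSG00000148400.13, chr9:136494433-136546048, minus strand, 34 exons) was at 48.6, 47.6 and 40.7 CPM in non-OSCs and at 53.8, 57.7 and 48.7 CPM in OSCs. Its groups nearly touched, and the log2 fold change was 0.23 (SE 0.0872, adjusted p 0.0271). That call was lost without non-OSC replicate 3 (adjusted p = 0.168), OSC replicate 1 (0.0567) or OSC replicate 2 (0.158), and with DESeq2 (0.0971).

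The targets moved in both directions. HES4 (ENSG00000188290.11, chr1:998962-1000172, minus strand, 4 exons) was at 8.78, 11.4 and 10.6 CPM in non-OSCs and at 22.5, 27.8 and 23.6 CPM in OSCs, a log2 fold change of 1.28 ± 0.132 (SE, adjusted p 2.59e-08). HEY1 (ENSG00000164683.19, chr8:79762371-79767857, minus strand, 5 exons) went the other way, at 135.3, 141.2 and 138.9 CPM in non-OSCs and only 93.4, 81.8 and 86.4 CPM in OSCs. HEY1 fell by 0.67 on the log2 scale (SE 0.0607, adjusted p 3.17e-09). HES1 (ENSG00000114315.4, chr3:194136148-194138732, plus strand, 4 exons) was at 36.5, 38.4 and 36.0 CPM in non-OSCs and at 29.0, 34.3 and 30.1 CPM in OSCs. Its log2 fold change of -0.24 (SE 0.0913, adjusted p 0.0242) was the least firm of the 3. It was not called without non-OSC replicate 2 (adjusted p = 0.0782), OSC replicate 1 (0.108) or OSC replicate 3 (0.0967), with DESeq2 (0.106), or when scaled by library size alone (0.0539). HES4 was thus higher in OSCs and HES1 lower, the latter under these limits. The part of the RBPJ cores in these levels was not tested.

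**Figure D1:**
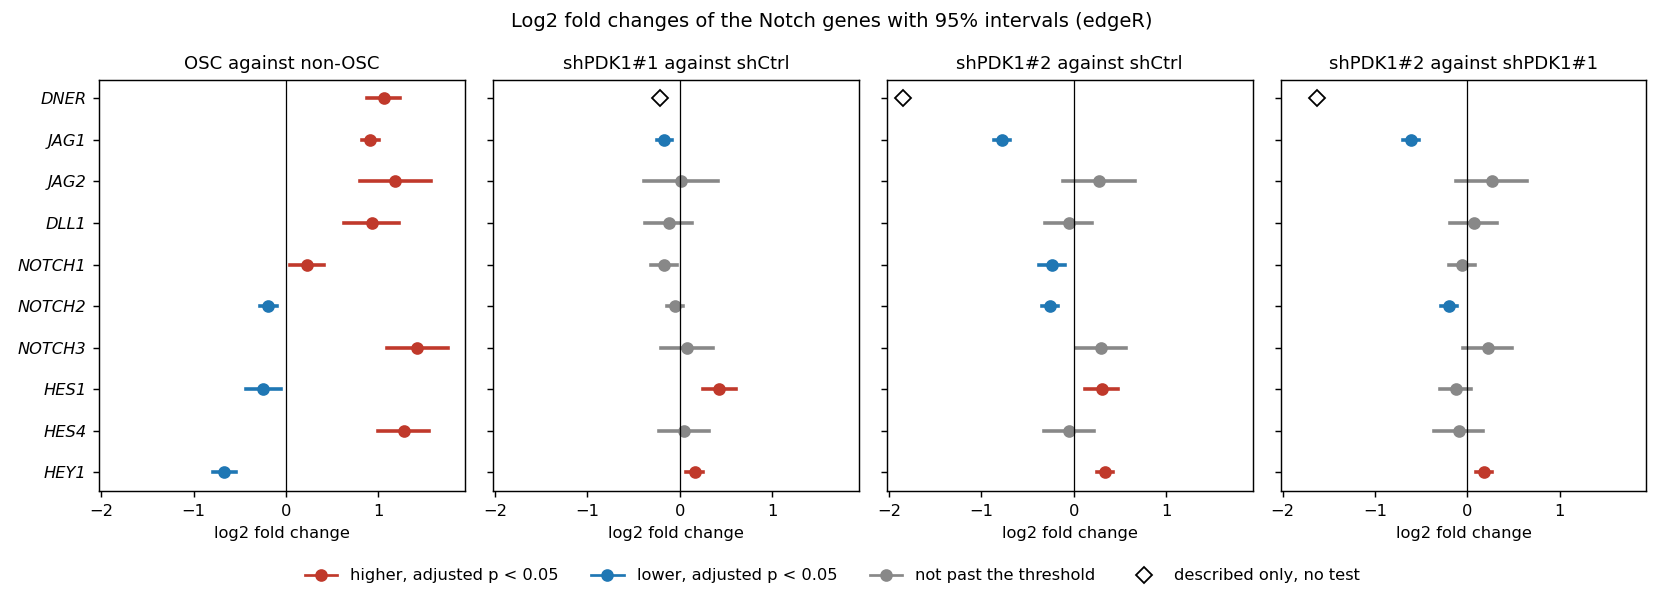
Log2 fold change (horizontal axis) of the 10 Notch genes in 4 comparisons, with 95% intervals from edgeR (lines); red and blue mark genes called higher and lower, grey those not past the threshold, and open diamonds DNER where it is described without a test. All 10 genes are called in OSCs against non-OSCs, whereas among the 9 tested with the hairpins JAG1 stands farthest from 0 with shPDK1#2 and HES1 with shPDK1#1.

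The hairpin comparisons ask what changed in the spheres when PDK1 was lowered. Both use the same 3 shCtrl libraries, so they are not independent of each other. Of the 9 genes tested, 3 were called with shPDK1#1 and 5 with shPDK1#2 (edgeR, adjusted p under 0.05 over 14574 genes). With shPDK1#1, HES1 and HEY1 were higher and JAG1 lower, where 1.62% and 1.44% of all genes were called higher and lower. With shPDK1#2, HES1 and HEY1 were higher and JAG1, NOTCH1 and NOTCH2 lower, where the shares of all genes were 12.0% and 14.2%. The median log2 fold change of the 9 genes was 0.01 with shPDK1#1 and -0.05 with shPDK1#2, near that of all genes (0.00 and 0.01).

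DNER was at 49.9, 50.6 and 43.9 CPM with shCtrl, at 37.1, 42.9 and 44.1 CPM with shPDK1#1 and at 14.5, 13.3 and 12.3 CPM with shPDK1#2. The shCtrl and shPDK1#1 libraries overlapped, while every shPDK1#2 library was below all 6 others. The means were 86.0% of shCtrl with shPDK1#1 and 27.8% with shPDK1#2, and the fitted log2 fold changes were -0.21 and -1.84. The shPDK1#2 values rest on 118 to 156 counts per library. The neural marker list summed to 282.4 to 294.3 CPM in the shCtrl libraries, to 258.3 to 296.6 CPM for shPDK1#1 and to 215.1 to 221.5 CPM for shPDK1#2. Of its 2 tested genes, TUBB3 was called lower with shPDK1#2 (log2 fold change -0.41, adjusted p = 1.50e-07), and the part of this in the DNER levels was not tested.

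JAG1 was at 376.5, 384.1 and 376.2 CPM with shCtrl, at 341.1, 348.0 and 324.9 CPM with shPDK1#1 and at 226.0, 221.2 and 216.0 CPM with shPDK1#2. The 3 groups did not overlap, and each group differed from the other two. JAG1 fell by 0.78 on the log2 scale with shPDK1#2 (SE 0.0403, adjusted p 1.08e-13), to 58.3% of shCtrl. With shPDK1#1 the log2 fold change was -0.17 (SE 0.0394, adjusted p 0.0154), and this call was lost without shCtrl replicate 1 (adjusted p = 0.0549), 2 (0.0958) or 3 (0.0510) or without shPDK1#1 replicate 3 (0.122). The direct contrast of shPDK1#2 with shPDK1#1 gave -0.61 (SE 0.0404, adjusted p 2.18e-11).

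The less abundant ligands were not called with either hairpin. The JAG2 level was 5.32 to 5.59 CPM with shCtrl, against 5.02 to 6.16 CPM for shPDK1#1 and 6.07 to 7.19 CPM for shPDK1#2. Its shPDK1#2 libraries were all above those of shCtrl, but the log2 fold change of 0.27 had a 95% interval from -0.11 to 0.66 (adjusted p = 0.314). DLL1 had a log2 fold change of -0.06 with shPDK1#2 (95% interval -0.31 to 0.20, adjusted p = 0.791) and of -0.12 with shPDK1#1 (95% interval -0.38 to 0.13, adjusted p = 0.725). Its shPDK1#2 libraries, from 13.0 to 17.7 CPM, enclosed the shCtrl range of 15.6 to 17.5 CPM.

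NOTCH2 was at 288.2, 280.5 and 289.6 CPM with shCtrl, at 269.7, 269.0 and 288.4 CPM with shPDK1#1 and at 243.6, 244.2 and 231.5 CPM with shPDK1#2. The first 2 groups overlapped, and the third lay below both. With shPDK1#2 the log2 fold change was -0.25 (SE 0.0423, adjusted p 4.60e-05), with shPDK1#1 it was -0.05 (adjusted p = 0.639), and between the hairpins it was -0.20 (adjusted p = 0.00113). Of the genes that share sequence with it, NOTCH2NLB had a log2 fold change of -0.42 with shPDK1#2 (adjusted p = 0.00390), and NOTCH2NLA one of -0.02 (adjusted p = 0.849).

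NOTCH1 was at 64.0, 58.0 and 61.0 CPM with shCtrl, at 52.0, 54.0 and 55.9 CPM with shPDK1#1 and at 50.9, 54.5 and 50.2 CPM with shPDK1#2. Every hairpin library was below every shCtrl library, and the hairpins overlapped. The log2 fold change was -0.23 with shPDK1#2 (SE 0.0679, adjusted p 0.0118) and -0.17 with shPDK1#1 (SE 0.0680, adjusted p 0.208). The contrast between the hairpins was -0.06 (95% interval -0.20 to 0.08, adjusted p = 0.622), so a difference between them was not shown. The shPDK1#2 call was lost without shCtrl replicate 1 (adjusted p = 0.0757) or shPDK1#2 replicate 3 (0.0539). The NOTCH3 levels were 11.8 ± 0.937, 12.4 ± 0.935 and 14.6 ± 1.86 CPM in the shCtrl, shPDK1#1 and shPDK1#2 libraries (SD, n = 3 each). They overlapped, and NOTCH3 was not called (log2 fold change 0.30 with shPDK1#2, adjusted p = 0.0972).

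HEY1 was at 174.1, 174.5 and 181.1 CPM with shCtrl, at 193.5, 202.6 and 196.2 CPM with shPDK1#1 and at 217.5, 231.8 and 221.3 CPM with shPDK1#2. No group overlapped another. HEY1 rose by 0.34 on the log2 scale with shPDK1#2 (SE 0.0441, adjusted p 1.30e-06) and differed by 0.18 between the hairpins (SE 0.0435, adjusted p 0.00486). With shPDK1#1 the log2 fold change was 0.16 (SE 0.0446, adjusted p 0.0433). This last call held in 5 of 15 alternatives, and leaving out any library of shCtrl or shPDK1#1 raised the adjusted p to between 0.0632 and 0.173. It was also lost without shPDK1#2 replicate 1 (adjusted p = 0.0565) or 3 (0.0619), which enter the shared estimate of the spread, when scaled by library size alone (0.0607) and with only the groups compared in the fit (0.0604).

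HES1 was at 27.3, 27.0 and 26.1 CPM with shCtrl, at 33.2, 35.8 and 38.9 CPM with shPDK1#1 and at 33.3, 32.9 and 33.0 CPM with shPDK1#2. Every hairpin library was above every shCtrl library. HES1 rose by 0.43 on the log2 scale with shPDK1#1 (SE 0.0850, adjusted p 0.00352) and by 0.30 with shPDK1#2 (SE 0.0853, adjusted p 0.00940), and both calls held in 15 of 15 alternatives. The hairpins overlapped, and their contrast of -0.13 had a 95% interval from -0.29 to 0.04 (adjusted p = 0.332). Each contrast of HEY1 and of JAG1 was called, those of shPDK1#1 with shCtrl under the limits above, while for HES1 the hairpins were not told apart. The hairpins differ in sequence as well as in the PDK1 level, and the effects of these cannot be told apart. HES4 had 13.0 ± 0.501, 13.3 ± 1.64 and 12.5 ± 1.29 CPM with shCtrl, shPDK1#1 and shPDK1#2 (SD, n = 3 each). Its groups overlapped, and its log2 fold changes of 0.04 and -0.05 were not called (adjusted p = 0.934 and 0.818).

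In the direct contrast of the hairpins, 3 of the 9 genes were called, HEY1 higher and JAG1 and NOTCH2 lower with shPDK1#2, where 6.50% of all genes were called higher and 9.78% lower. DNER is described by a log2 fold change of -1.63. The 5 genes called both in OSCs against non-OSCs and with shPDK1#2 against shCtrl, which share no library, were JAG1, NOTCH1, HES1, HEY1 and NOTCH2. The first 4 had opposite directions, and NOTCH2 was lower in both. Of the 3033 genes called in both comparisons, 80.7% had opposite directions, so 4 of 5 is near the share of all genes.

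The summed level of the fibroblast marker list also differed between the conditions. It was 186.7 to 199.8 CPM in non-OSCs and 380.9 to 403.3 CPM in OSCs. In the other table it was 277.8 to 295.9 CPM for shCtrl, 317.2 to 334.6 CPM for shPDK1#1 and 351.2 to 374.2 CPM for shPDK1#2. Most of each sum was PDGFRA, with means of 177.0 CPM in non-OSCs and 378.0 CPM in OSCs. PDGFRA was at 275.3, 295.6 and 254.8 CPM with shCtrl, shPDK1#1 and shPDK1#2, and COL3A1 at 4.85, 19.3 and 86.4 CPM. Of the 8 genes of the list, 1 was called higher (PDGFRA) and 1 lower (FAP) of the 4 tested in OSCs. With shPDK1#1, 3 of the 6 tested were called higher, and with shPDK1#2 4 were, COL3A1, POSTN, PDGFRB and LUM. The labels name a single cell line, none of the 8 was at or under 3 counts in every library, and the part of this list in the Notch gene levels was not tested. The osteosarcoma and mesenchymal list summed to 4935 to 5178 CPM for non-OSCs and 8164 to 8656 CPM for OSCs. In the hairpin table it summed to 9150 to 10975 CPM. In OSCs 5 of its 7 tested genes were called, 4 higher and RUNX2 lower (37.7 CPM in non-OSCs, 17.3 CPM in OSCs). With shPDK1#1 1 of 8 was called and with shPDK1#2 4 of 8 were (all higher). The leukocyte list, nearly all of it the lysosomal gene CD68, summed to 55.3 to 68.9 CPM in the OSC table, to 37.1 to 43.9 CPM for shCtrl and to 21.7 to 24.1 CPM for shPDK1#2, where CD68 was called lower. The endothelial list summed to 5.98 to 6.83 CPM for non-OSCs, 1.52 to 2.34 CPM for OSCs and 1.24 to 3.35 CPM in the hairpin table. The epithelial list summed to 6.85 to 7.22 CPM for non-OSCs, 3.99 to 5.42 CPM for OSCs and 3.98 to 7.28 CPM in the hairpin table. In OSCs the endothelial KDR (1 tested), the epithelial CLDN4 (of 2 tested) and the leukocyte CD14 (of 2 tested) were called lower. The part of these lists in the results was not tested either.

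The families were then compared per length, as CPM per kilobase of the canonical GENCODE transcript. NOTCH2 made up 81.7% ± 0.547 of the summed level of the 4 receptors in non-OSCs and 74.0% ± 0.734 in OSCs (SD, n = 3 each), while NOTCH3 went from 2.62% ± 0.746 to 7.21% ± 0.616. In the hairpin libraries NOTCH2 made up 73.2% to 77.4%. JAG1 was the main canonical ligand, with 81.0% ± 1.27 of the summed level of JAG1, JAG2, DLL1, DLL3 and DLL4 in non-OSCs and 85.7% ± 0.537 in OSCs (SD, n = 3 each). The summed ligand level was 37.8 ± 1.09 CPM per kilobase in non-OSCs and 67.4 ± 0.866 in OSCs. It was 73.0 ± 1.04 with shCtrl, 65.9 ± 2.72 with shPDK1#1 and 46.5 ± 1.44 with shPDK1#2, and JAG1 made up 87.3%, 86.3% and 80.0% of it.

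HEY1 was the most abundant of the 9 HES and HEY genes per length in every condition. Its share was 56.4% ± 0.809 in non-OSCs and 36.0% ± 3.77 in OSCs (SD, n = 3 each), whereas that of HES4 was 10.3% ± 1.01 and 25.1% ± 1.80. The summed HES and HEY level was 111.7 ± 3.97 CPM per kilobase in non-OSCs and 110.6 ± 4.53 in OSCs, so the make-up differed while the sums lay within their spread. In the hairpin table the sum was 130.6 ± 1.36 with shCtrl, 147.0 ± 6.58 with shPDK1#1 and 154.9 ± 4.51 with shPDK1#2. HEY1 made up 61.5%, 61.2% and 65.7% of these sums.

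Another 54 genes of the pathway were examined by role, and 49 passed the filter on low counts (DLL4, DLK1, NEURL1, DTX1 and HES5 did not). In OSCs 24 of them were higher and 10 lower, with a median log2 fold change of 0.19, where 32.4% and 31.5% of all genes tested were called and their median was -0.01. The counts by role that follow are to be read against the same shares. Of the other ligands, DLL3 was lower in OSCs (log2 fold change -0.46, adjusted p = 0.0384) and DLK2 higher (0.61, adjusted p = 0.00225). The proteases and gamma-secretase subunits that cut the receptors had 6 higher and 1 lower of 9. The genes of ligand and receptor turnover had 7 higher and 0 lower of 11. NUMBL, a relative of the Notch inhibitor NUMB, had a log2 fold change of 1.26 (adjusted p = 4.96e-11). RBPJ itself rose by 0.52 on the log2 scale (adjusted p = 5.18e-07), while KAT2A, an acetyltransferase, fell by 0.66 (adjusted p = 4.58e-07). Corepressors were split 3 higher and 4 lower of 8, with TLE2, a Groucho-type corepressor, higher (log2 fold change 0.98, adjusted p = 1.52e-06). Of the glycosylation genes, POFUT1, which adds fucose to the receptors, fell by 0.59 (adjusted p = 2.31e-09). RBPJ, DLL3 and DLK2 were named after their values were seen.

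Among the other HES and HEY genes and the feedback gene NRARP, 3 were higher (HES2, HES6 and HES7) and 1 lower of 6 in OSCs. HES7, known from the segmentation clock, was at 2.31, 2.41 and 2.53 CPM in non-OSCs and at 7.89, 10.3 and 9.42 CPM in OSCs (log2 fold change 1.93, adjusted p = 9.54e-08). NRARP, a Notch target whose product limits the intracellular domain, was at 8.004, 8.76 and 9.26 CPM in non-OSCs and at 3.94, 3.44 and 3.26 CPM in OSCs (log2 fold change -1.29, adjusted p = 8.42e-06). The libraries did not overlap for either gene, and they moved in opposite directions.

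With shPDK1#1, 0 of the 49 were higher and 1 was lower (1.62% and 1.44% of all genes), NEURL1B, a ubiquitin ligase for Notch ligands (log2 fold change -0.36, adjusted p = 0.0223). That count was 0 without shCtrl replicate 1 or 3 or shPDK1#1 replicate 1 or 3, and 2 without shPDK1#1 replicate 2. With shPDK1#2, 5 were higher and 8 lower of the 49, with a median log2 fold change of -0.02, near the 12.0% and 14.2% of all genes. NEURL1B was at 38.8, 32.9 and 40.3 CPM with shCtrl, at 28.2, 29.2 and 29.5 CPM with shPDK1#1 and at 23.9, 25.1 and 22.3 CPM with shPDK1#2, and fell by 0.65 with shPDK1#2 (adjusted p = 5.01e-06). TLE1, another Groucho-type corepressor, fell by 0.63 (adjusted p = 1.34e-07), and APH1B, a gamma-secretase subunit, by 0.65 (adjusted p = 0.00691). NCSTN, another subunit, rose by 0.28 on the log2 scale (adjusted p = 0.00348), and KAT2A rose by 0.23 (adjusted p = 0.0444).

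HEY2, a close relative of HEY1, had the largest log2 fold change of the 49 with shPDK1#2. It was at 3.84, 3.92 and 3.60 CPM with shCtrl, at 3.23, 5.23 and 4.73 CPM with shPDK1#1 and at 9.96, 7.99 and 9.17 CPM with shPDK1#2. Only the shPDK1#2 libraries lay apart from the others, and the log2 fold change was 1.25 (SE 0.203, adjusted p 3.41e-05), with 29 to 39 counts per shCtrl library. In the direct contrast of the hairpins 5 of the 49 were higher and 7 lower with shPDK1#2 (6.50% and 9.78% of all genes), HEY2 among the former (log2 fold change 1.02, adjusted p = 0.000488).

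**Figure D2:**
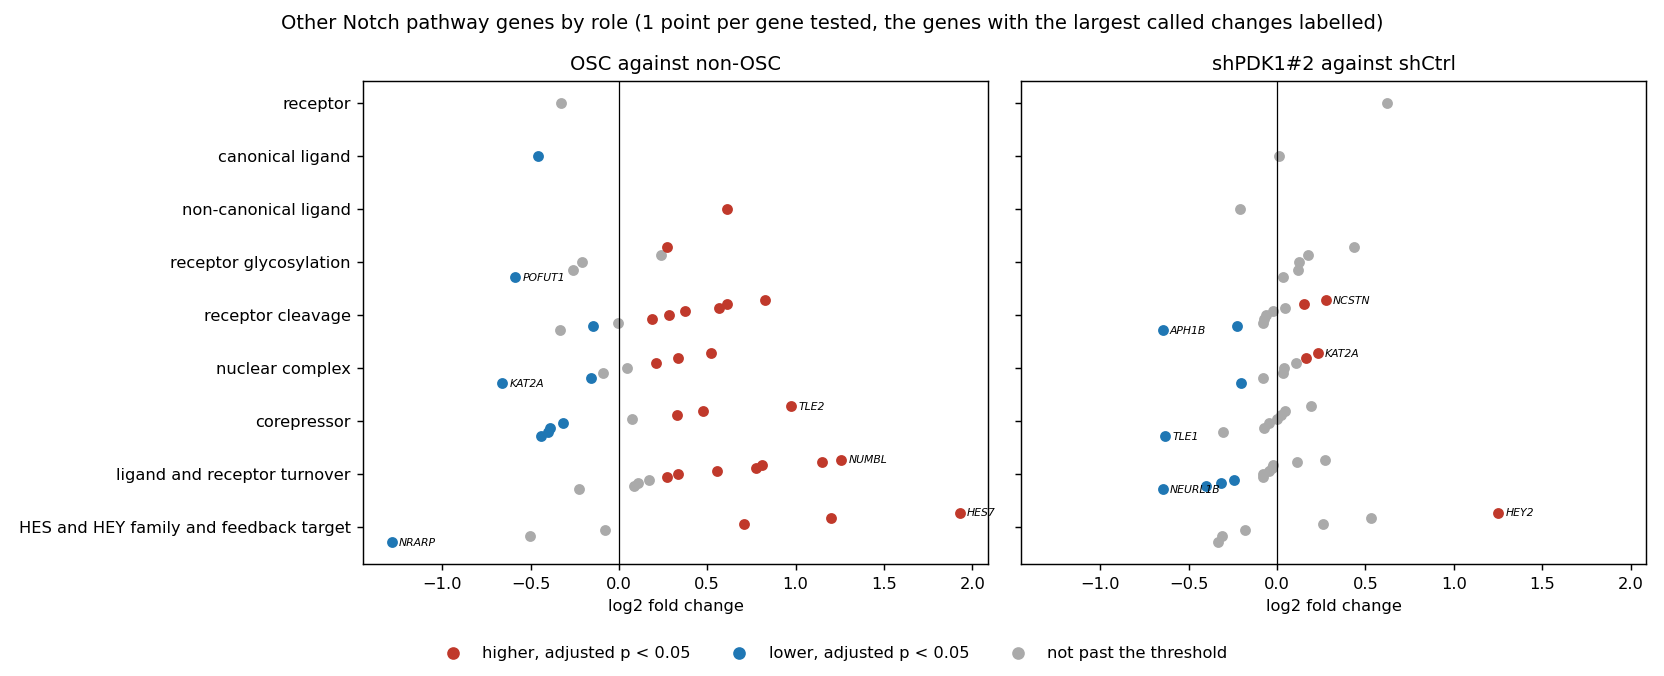
Log2 fold change (horizontal axis) of the 49 tested genes of the wider Notch pathway, 1 point per gene, by role (rows), in OSCs against non-OSCs and shPDK1#2 against shCtrl; red and blue mark genes called higher and lower, and up to 3 of the largest in each direction with a mean of at least 5 CPM are labelled. The receptor cleavage and turnover genes lie mostly to the right in OSCs, whereas with shPDK1#2 most points are grey and HEY2 lies farthest from 0.

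The genes whose log2 CPM followed DNER most closely over the 9 hairpin libraries were the cytokine IL11 (Pearson r = 0.994), the semaphorin SEMA7A (0.992), the thrombospondin THBS2 (0.991), PERP (0.991) and the cadherin CDH6 (0.990), out of 10060 genes with a mean of at least 10 CPM. The 9 points come from 3 conditions, and all 5 genes had their lowest mean with shPDK1#2, so these values are a description. Over the 6 OSC and non-OSC libraries the values were 0.994 for IL11, 0.361 for SEMA7A, -0.974 for THBS2, 0.985 for PERP and 0.980 for CDH6. Any gene that differs clearly between OSCs and non-OSCs, as DNER does, has a large r of either sign there. The share of all genes with such values was not counted, so these too are a description. Among the Notch genes, JAG1 was the most like DNER, with r = 0.986 over the 9 libraries and 0.989 over the 6. HEY1 was opposite to DNER in both, with r = -0.902 and -0.989. DNER was chosen on values of the 9 libraries, so these values are a description too. Over the 6, which are OSCs and non-OSCs only, r was also high for HES4 (0.984), DLL1 (0.970) and JAG2 (0.967), and was -0.953 for NOTCH2.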

How the data were processed

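RNA of 15 libraries of 143B cells, 3 for each of 5 conditions named in the labels, was analysed. The authors deposited unnormalized expected counts per gene, made with RSEM 1.3.3 after alignment by STAR 2.7.11a to GRCh38.p14. Reads had passed through Trimmomatic 0.39 and FastQC 0.12.1 (versions per the submitters' processing notes). RSEM divides reads between matching transcripts, and the annotation and strandedness are not given in the sources used here. The columns named 2D and 3D in one table were taken as non-OSC and OSC from the culture methods and replicate numbers, and 0 columns were left unmapped.

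Expected counts were rounded and tested in each table with edgeR 4.0.16 in R 4.3.3 (TMM, filterByExpr by condition, quasi-likelihood test, Benjamini-Hochberg adjustment over all genes tested, threshold 0.05), with all 9 hairpin libraries in one fit. The fit was tested on simulated data. DESeq2 1.42.0, library size alone, other filters on low counts (none, or at least 10 counts in every library), only the groups compared, a replicate block and each library left out were the alternatives. All 62700 gene identifiers matched GENCODE 44, which gave symbols, positions and transcript lengths. Promoters are from RefSeq.

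The 10 genes, the pathway and marker lists and the tests were chosen with earlier results of these data known. Beyond the 10, the text names the 3 largest rises and falls of the pathway list among called genes with a mean of at least 5 CPM in OSCs against non-OSCs and each hairpin against shCtrl, and the 5 genes most correlated with DNER in log2 CPM (prior count 2).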

Additional observations from a re-analysis of the deposited data

Results flagged for a closer look

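Beside DNER, which was not tested here, 3 of the other 9 Notch genes differed between the hairpins, as tested by the direct contrast of shPDK1#2 with shPDK1#1 in edgeR. Among all genes tested in it, 6.50% were called higher and 9.78% lower. JAG1 was lower with shPDK1#2 by a log2 fold change of -0.61, and NOTCH2 by one of -0.20. HEY1 was higher with shPDK1#2 by 0.18. PDK1 itself was lower with shPDK1#2 than with shPDK1#1 (log2 fold change -0.50, adjusted p = 0.000240), and its part in these differences was not tested.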

How the results depend on the processing

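Under DESeq2, library size alone, the other filters and the fit of only the groups compared, every count of called Notch genes and of called pathway genes stayed within 1.5 times its value. When any 1 library was left out, the counts moved by more only for shPDK1#1 against shCtrl, where 1 to 3 Notch genes and 0 to 2 pathway genes were called. Of the single-gene results, 224 kept direction and call in the settings other than leaving out a library, 5 lost the call and 1 changed sign, and with a library left out these numbers were 304, 20 and 6. The exceptions among calls are given with the genes above. The others concern uncalled genes near 0 that changed sign. JAG2 with shPDK1#1 had a log2 fold change of -0.00078 with library size alone and lay between -0.101 and 0.0674 with a library left out. Such ranges were -0.146 to 0.0593 for DLL1 and -0.129 to 0.0215 for HES4 with shPDK1#2, -0.0469 to 0.119 for HES4 with shPDK1#1, and -0.0209 to 0.182 for DLL1 between the hairpins. Correlations of deviations were -0.05 to 0.09 over 12 pairs of libraries with the same replicate number. Over the 24 pairs with unlike numbers they were -0.08 to 0.05. Pairing by number was thus not shown, but such small values cannot exclude it. With the replicate block, 10, 3, 5 and 3 Notch genes were called in OSCs, with shPDK1#1, with shPDK1#2 and between the hairpins. The lowest counts, which limit precision most, were those of JAG2, DLL1, NOTCH3 and HES4, with 39 to 275 counts per library.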
